A study of Homo sapiens with 10 samples.

Results

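The aldehyde dehydrogenases are enzymes that oxidise aldehydes to carboxylic acids with NAD or NADP. The 10 genes described here are ALDH1A1, ALDH1A2, ALDH1A3, ALDH1B1, ALDH2, ALDH3A1, ALDH3A2, ALDH3B1, ALDH7A1 and ALDH9A1. They were taken by name: every probe whose symbol in the platform annotation is one of these genes was kept, which gave 18 probes among 48803 on the array, and 10 of the 18665 genes with a probe of a single symbol. These genes were chosen by their differences between treated and control cells, which were already known, because members of the family differed in opposite directions. Those differences are therefore given below as a description, with no test.

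RNA came from NCI-H441, an established human lung adenocarcinoma cell line, and was hybridised to Illumina HumanWG-6 bead arrays. The treated group, 5 arrays, was cells given the small molecule CLEFMA at 1 µM for 12 h. The control group, 5 arrays, was cells given the solvent alone for the same time, although 1 label field calls them untreated. DMSO stood at 0.1% and the culture medium with serum was the same in both groups. The sources differ on the number of cultures: 5 replicates per group in the series text, 4 wells per group in the treatment protocol and 3 biological replicates in the extraction protocol. No source says that each array is a separate culture, so the spread between arrays may be technical. This is a single cell line, with no other line or normal lung cell beside it.

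Aldehydes arise in cells from lipid peroxidation, from alcohols and amines, and from vitamin A. Each member of the family has its own substrates and compartment. The ALDH1A enzymes turn retinaldehyde into retinoic acid, the ligand of the retinoic acid receptors. The ALDH3 enzymes oxidise medium- and long-chain fatty aldehydes, and ALDH2 and ALDH1B1 work in mitochondria on acetaldehyde and other small aldehydes. Some family members are targets of NRF2, which switches on genes against oxidants and electrophiles, and high ALDH activity is used to mark subsets of lung tumour cells.

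All values are log2 of the deposited signal, in linear units, plus an offset of 3, quantile normalized between arrays, and are called log2 levels. A probe was taken as above background where the deposited log10 value exceeded 0.2, which on this scale is a log2 level of about 2.14 to 2.28 depending on the array. Levels of different probes were not set against each other, because each probe binds with its own strength. Between 49.1% and 53.7% of probes were above background per array. On average control 3 correlated least with the rest (0.978, where the other 9 arrays were at 0.986 to 0.990). Of 11 tested epithelial and lung markers 9 were above background on all 10 arrays, EPCAM, KRT18, NKX2-1 and SFTPA1 among them, while SFTPC, the surfactant gene of alveolar type II cells, was above it on none. Mean log2 levels of these 11 ran from 8.16 to 8.29 on treated arrays and from 8.26 to 8.42 on control arrays. Of 7 fibroblast markers 4 were above background on all 10 arrays, with means of 3.45 to 3.58 (treated) and 3.49 to 3.64 (control). Of 7 leukocyte markers 4 were, with means of 3.47 to 3.76 (treated) and 3.26 to 3.65 (control). COL3A1 and CD4 were above background on no array. LUM (7.07 treated, 7.28 control), COL1A1 (6.14 and 6.26) and CD68 (8.41 and 8.42) were above it on all 10. Whether other cells had a part in the results was not tested. In bulk RNA, fewer cells with a transcript and less transcript per cell cannot be told apart.

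Among the ALDH3 genes, ALDH3A2 was the member with the largest difference. It encodes the fatty aldehyde dehydrogenase of the endoplasmic reticulum and peroxisomes, whose loss causes Sjögren-Larsson syndrome. Log2 levels of its probe ILMN_1794825 were 9.23, 9.15, 9.00, 9.20 and 9.61 on treated arrays 1 to 5, against 8.25, 8.38, 7.75, 8.41 and 8.53 on control arrays 1 to 5. Every treated array was above every control array, treated 5 was the highest and control 3 the lowest. The means were 9.24 ± 0.23 in treated cells and 8.26 ± 0.31 in control cells (SD, n = 5 each), a log2 difference of 0.98 ± 0.15 (SE) or 1.97-fold. Without control 3 the difference was 0.85, and without treated 5 it was 0.88.

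The other ALDH3A2 probes gave like values. ILMN_2401641 read 7.30, 7.54, 7.53, 7.43 and 7.61 on treated arrays, against 6.70, 6.53, 5.74, 6.44 and 6.77 on control arrays, a log2 difference of 1.05 ± 0.17 (SE). ILMN_1667564 read 5.83, 5.84, 5.87, 5.89 and 6.07 on treated arrays, against 5.21, 5.20, 4.68, 5.03 and 5.28 on control arrays, a difference of 0.82 ± 0.11 (SE). The groups did not overlap on either probe, and treated 5 was again the highest and control 3 the lowest on both. Without control 3 these differences were 0.87 and 0.72. The 3 probes share the same RNA samples and are not separate evidence of the size.

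ALDH3A1, the relative best known from cornea and stomach, where it removes aldehydes made by light and lipid oxidation, was at or near background. Its single probe read 1.92, 1.84, 1.72, 1.58 and 2.29 on treated arrays, against 1.58, 1.80, 1.58, 1.58 and 1.58 on control arrays. It was above background on 1 treated array, treated 5, and on 0 control arrays. A value of 1.58 is the log2 of the offset alone, and 5 of the 10 arrays had it, so no order among them and no difference are given. On the chromosome 17 map of RefSeq, ALDH3A2 and ALDH3A1 are separated among coding genes by SLC47A2 alone. SLC47A2, a transporter of organic cations, was above background on no array. LRRK1, the next coding gene after ALDH1A3 on its chromosome, was above it on every array. LRRK1 differed by −0.29 ± 0.12 (SE) with overlapping groups, and limma did not call it (limma adjusted p = 0.531).

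ALDH3B1 oxidises aldehydes derived from membrane lipids. Its probe ILMN_1728662 read 5.93, 5.81, 5.71, 5.74 and 6.68 on treated arrays, against 5.69, 5.91, 6.25, 5.92 and 6.79 on control arrays. The groups overlapped, and both arrays numbered 5 were the highest of their group. The difference was −0.14 ± 0.23 (SE), −0.31 without treated 5 and 0.03 without control 5. The other ALDH3B1 probe was above background on 3 treated and 4 control arrays, with overlapping groups and treated 5 at the offset, so no difference is given for it.

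**Figure D1:**
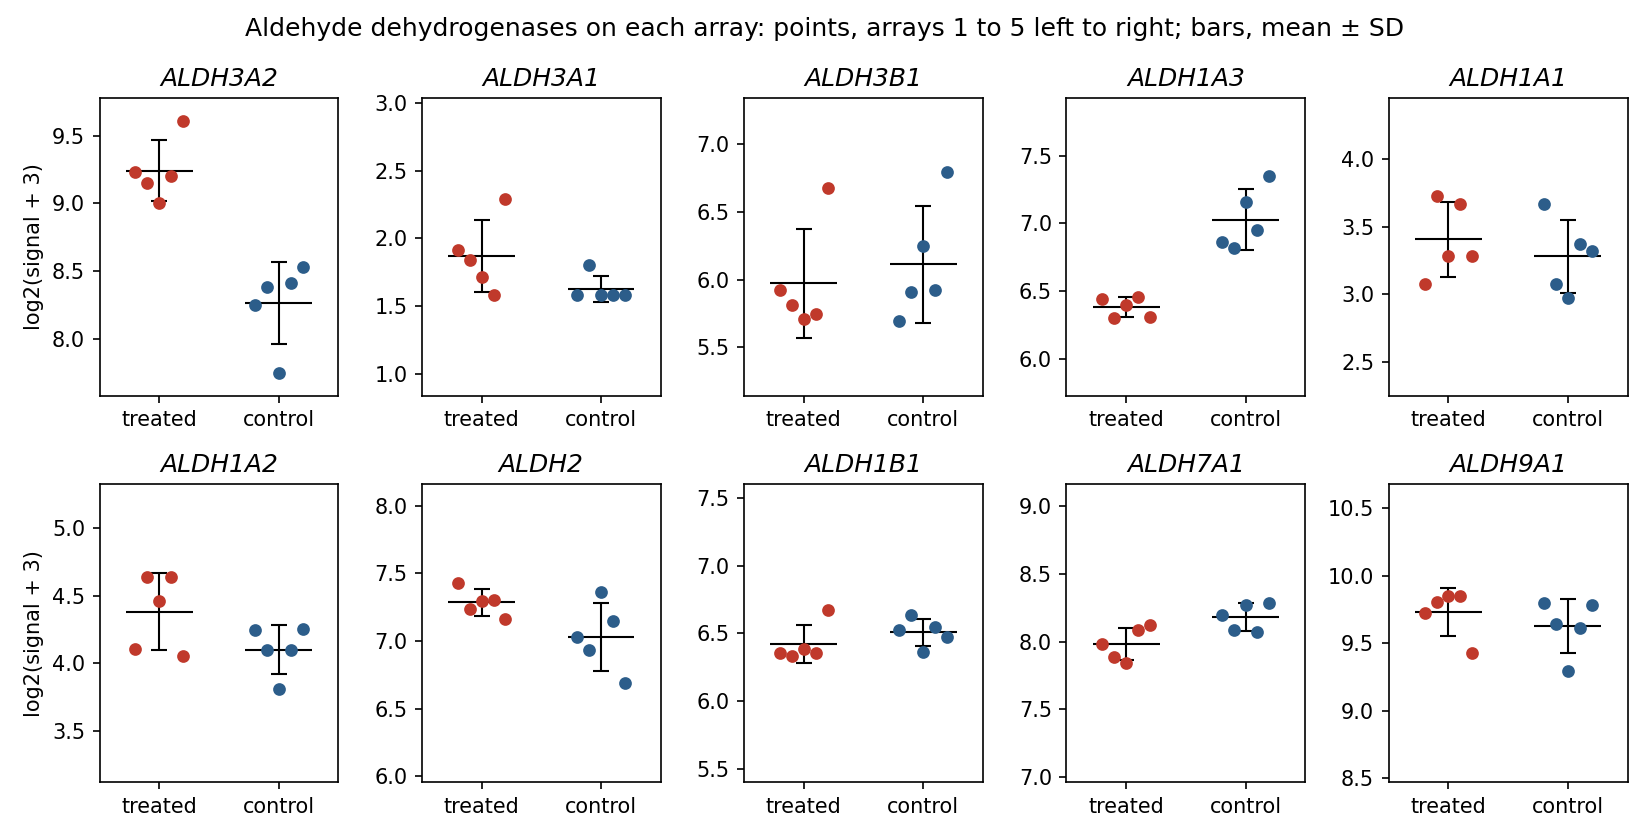
Log2 level (vertical axis, each panel spanning the same 2.2 log2 units) of each aldehyde dehydrogenase on treated (left, red) and control (right, blue) arrays, with the mean and SD. The groups are apart for ALDH3A2, where treated arrays are higher, and for ALDH1A3, where they are lower; the other 8 genes overlap.

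Of the retinaldehyde dehydrogenases, ALDH1A3 differed in the opposite direction. Log2 levels of its probe ILMN_1807439 were 6.44, 6.30, 6.39, 6.46 and 6.31 on treated arrays, against 6.86, 6.82, 7.16, 6.95 and 7.35 on control arrays. Every treated array was below every control array, and the treated arrays lay closer together than the controls. The means were 6.38 ± 0.07 in treated cells and 7.03 ± 0.22 in control cells (SD, n = 5 each), a log2 difference of −0.65 ± 0.11 (SE), or 1.57-fold lower. Control 5 had the highest level, and without it the difference was −0.57. Without control 3 it was −0.62.

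The second ALDH1A3 probe had the same sign and a smaller difference. ILMN_2139970 read 6.42, 6.15, 6.38, 6.37 and 6.26 on treated arrays, against 6.76, 6.67, 6.37, 6.67 and 7.26 on control arrays. Control 3 lay within the treated range, so the groups overlapped. The difference was −0.43 ± 0.14 (SE), −0.53 without control 3 and −0.30 without control 5. With control 3 left out the groups did not overlap. On control 3 the 2 probes of the gene thus gave different readings, 7.16 being the second highest of the controls on one and 6.37 the lowest on the other.

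ALDH1A1, a cytosolic retinaldehyde dehydrogenase often used as a stem cell marker, was close to background. Its probe ILMN_1709348 read 3.07, 3.73, 3.28, 3.66 and 3.28 on treated arrays, against 3.66, 3.07, 2.98, 3.37 and 3.32 on control arrays. The groups overlapped, with a difference of 0.13 ± 0.16 (SE), which ran from 0.05 to 0.22 with 1 array left out. Its other probe sat at the offset on all 10 arrays and was the 1 member probe that the filter on dim probes removed. ALDH1A2, the retinaldehyde dehydrogenase of the early embryo, read 4.11, 4.64, 4.46, 4.64 and 4.06 on treated arrays, against 4.25, 4.10, 3.81, 4.10 and 4.26 on control arrays with probe ILMN_2383707. The groups overlapped and differed by 0.28 ± 0.14 (SE). Its other probe was above background on no array.

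The bases before the start sites of ALDH3A2 and ALDH1A3 are shown because these were the members whose groups did not overlap. They are the 250 bases before each start in the RefSeq promoter table (GRCh38.p14, plus strand), and ALDH3A2 has a pair of starts there. Capitals mark GCGTG, the core of the xenobiotic response element bound by the aryl hydrocarbon receptor, read on either strand (CACGC on the other).
ALDH3A2 first start, chr17:19647886-19648135: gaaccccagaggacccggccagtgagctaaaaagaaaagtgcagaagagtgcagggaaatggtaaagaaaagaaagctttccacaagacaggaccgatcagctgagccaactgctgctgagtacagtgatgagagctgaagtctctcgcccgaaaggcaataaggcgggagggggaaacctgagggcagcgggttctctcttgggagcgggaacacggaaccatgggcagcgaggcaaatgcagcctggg
ALDH3A2 second start, chr17:19648501-19648750: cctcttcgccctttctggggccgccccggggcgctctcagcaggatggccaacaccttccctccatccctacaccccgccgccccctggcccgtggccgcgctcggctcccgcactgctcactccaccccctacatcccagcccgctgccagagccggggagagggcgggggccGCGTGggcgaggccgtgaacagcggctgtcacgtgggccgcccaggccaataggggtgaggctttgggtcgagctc
ALDH1A3, chr15:100879581-100879830: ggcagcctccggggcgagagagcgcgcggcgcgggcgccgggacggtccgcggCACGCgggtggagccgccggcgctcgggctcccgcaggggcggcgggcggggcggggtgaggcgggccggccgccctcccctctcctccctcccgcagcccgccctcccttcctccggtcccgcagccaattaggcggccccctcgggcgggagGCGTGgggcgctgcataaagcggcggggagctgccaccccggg

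GCGTG occurred 2 times before ALDH1A3, at 197 to 193 bases before the start on the minus strand and at 43 to 39 on the plus strand. It occurred 1 time before the second ALDH3A2 start, at 76 to 72 bases, and 0 times before the first. GCGTG also occurred 1 time before the first ALDH1A2 start, at 221 to 217 bases, and the groups of ALDH1A2 overlapped. No other window of the members held it, so it does not set apart the members whose groups did not overlap. Over all 35116 promoters in the table, 32.2% held GCGTG in the same window. TGACNNNGC, the core of the antioxidant response element that NRF2 binds, was in 0 of the 11 windows of the 8 members listed in the table, against 10.9% of all windows, and AGGTCA, the half-site of retinoid receptors, in 0 of 11, against 12.1%. Both strands were searched and the motifs were allowed to overlap. These counts concern the letters in this window alone. GC content was 55.6% and 73.2% before the ALDH3A2 starts and 82.4% before ALDH1A3, against a median of 58% over all promoters. ALDH2 and ALDH3A1 were not matched.

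The mitochondrial members differed little. ALDH2, which clears acetaldehyde from alcohol, read 7.43, 7.24, 7.30, 7.30 and 7.16 on treated arrays, against 7.03, 6.93, 7.36, 7.14 and 6.69 on control arrays. The groups overlapped through control 3, which was above 4 of the treated arrays. The difference was 0.25 ± 0.12 (SE). Without control 3 it was 0.34 and every treated array was above every control array, while without control 5 it was 0.17. ALDH1B1, a close relative of ALDH2, read 6.36, 6.34, 6.38, 6.35 and 6.67 on treated arrays, against 6.53, 6.63, 6.36, 6.55 and 6.48 on control arrays. That probe, ILMN_2150894, differed by −0.09 ± 0.09 (SE) and by −0.15 to −0.06 with 1 array left out, with treated 5 above the other treated arrays. The other ALDH1B1 probe differed by −0.29 ± 0.11 (SE), from means of 5.03 in treated cells and 5.32 in control cells, and its groups overlapped because control 5 read 5.01.

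ALDH7A1, also called antiquitin, oxidises the semialdehyde formed in lysine breakdown and osmolyte aldehydes. Its probe ILMN_1763461 read 7.99, 7.89, 7.84, 8.08 and 8.12 on treated arrays, against 8.20, 8.08, 8.27, 8.08 and 8.29 on control arrays, a difference of −0.20 ± 0.09 (SE) with overlapping groups. Its other probe, ILMN_1687508, differed by 0.08 ± 0.08 (SE), so the sign depends on the probe. ALDH9A1, which oxidises aminoaldehydes on the way to carnitine and GABA, read 9.73, 9.80, 9.85, 9.85 and 9.42 on treated arrays, against 9.80, 9.64, 9.30, 9.61 and 9.78 on control arrays. The groups overlapped, with a difference of 0.10 ± 0.12 (SE), and treated 5 and control 3 were the lowest of their groups. Without control 3 the difference was 0.02, and without treated 5 it was 0.18.

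**Figure D2:**
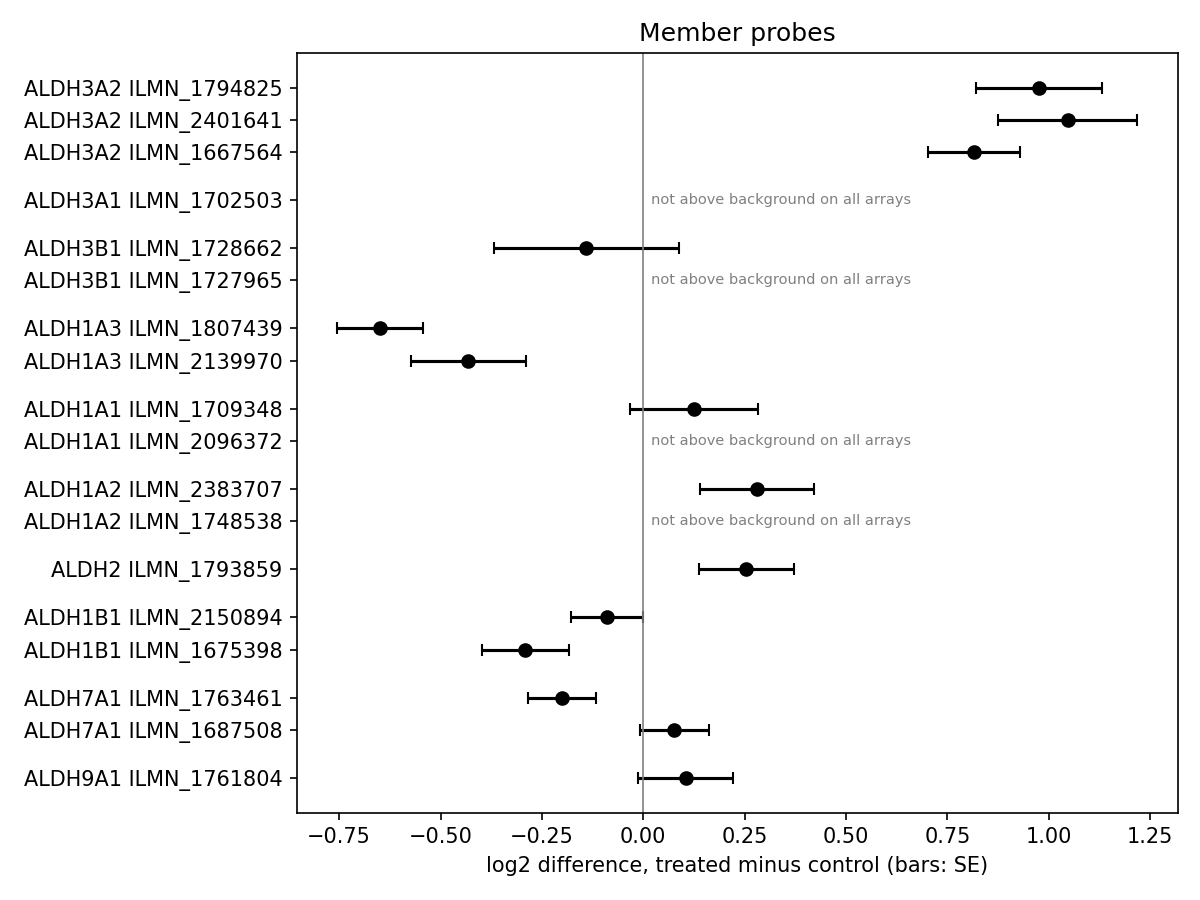
Log2 difference, treated minus control, with its SE, for each probe of the 10 genes that was above background on all 10 arrays; the remaining 4 of the 18 probes are named with no point. All 3 ALDH3A2 probes lie between 0.82 and 1.05 and both ALDH1A3 probes lie below 0, while the 2 ALDH7A1 probes have opposite signs.

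All 10 genes passed the filter on dim probes, and 9, all but ALDH3A1, were above background on all 10 arrays. Over these 9, each taken from its brightest probe, differences ran from −0.65 to 0.98 with a median of 0.10, beside a median of 0.01 over the 17752 genes tested; 5 were positive. Every treated array was above every control array for 1 gene, ALDH3A2, and below for 1, ALDH1A3. Over all genes the shares were 1.46% and 1.04%. Since the members were chosen with this contrast known, nothing is read from these counts.

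The 9 remaining human aldehyde dehydrogenases listed beside these genes were also looked up. They were tested with limma at an adjusted p of 0.05 over all genes, which called 0.265% of all genes higher and 0.0338% lower. Of the 8 that passed the filter it called 0 in either direction. An unadjusted p under 0.05 was reached by 0 of these 8, beside 795 higher and 795 lower of all 17752 genes. Differences of the 8 ran from −0.34 to 0.28 with a median of −0.05. ALDH5A1, which clears succinic semialdehyde from GABA, averaged 6.71 in treated cells and 7.05 in control cells, with control 3 at 7.58. ALDH18A1, which makes the glutamate semialdehyde used for proline, averaged 6.07 in treated cells and 5.79 in control cells, with control 3 at 4.83. ALDH6A1, of valine breakdown, differed by −0.17 ± 0.11 (−0.31 on its other probe) and ALDH8A1, of the kynurenine pathway, by 0.16 ± 0.17 (SE, n = 5 per group). ALDH16A1 differed by −0.09, ALDH1L2, of mitochondrial folate metabolism, by −0.06, ALDH3B2 by −0.05 and ALDH4A1, of proline breakdown, by 0.00. ALDH1L1 did not pass the filter.

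Limma called 0 genes in the lists around the retinaldehyde step. It called 0.265% of all genes higher and 0.0338% lower, so 0 calls say little about short lists. Of 22 tested genes of retinoid uptake, storage, oxidation and clearance, 13 were above background on all 10 arrays. An unadjusted p under 0.05 was reached by 0 of the 22, beside 795 higher and 795 lower of all 17752 genes. Differences of the 22 ran from −0.17 to 0.31, with a median of 0.02. DHRS3, which reduces retinaldehyde back to retinol, differed by 0.11 ± 0.17, RDH10, which makes retinaldehyde, by 0.16 ± 0.17, CRABP2, which carries retinoic acid to its receptors, by −0.14 ± 0.09 and CYP26B1, which degrades retinoic acid, by −0.16 ± 0.11 (SE, n = 5 per group). Of 17 tested receptors and response genes, 9 of them above background on all 10 arrays, limma also called 0. At an unadjusted p under 0.05, 0 were higher and 2 lower. These were TGM2, a transglutaminase (−0.66 ± 0.27), and NRIP1, a receptor corepressor (−0.36 ± 0.16), with limma adjusted p-values of 0.506 and 0.534. The other TGM2 probes, also above background on all 10 arrays, differed by −0.06 and −0.08. NRIP1 was lower on every treated array, and read 8.89 on control 3 with no other control above 8.07. Without control 3 its difference was −0.20. RARB, a receptor gene that retinoic acid induces, differed by 0.20 ± 0.17. Without treated 5 the difference of RDH10 was −0.01, that of DHRS3 0.25 and that of RARB 0.34. Without control 3 that of RARB was 0.09. The spread between arrays leaves room for small differences in all of these.

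Other enzymes that remove carbonyl compounds included genes that rose. Of 14 tested, 4 rose and 0 fell in limma, with a median difference of 0.31. At an unadjusted p under 0.05, 7 were higher and 0 lower. Over all 17752 genes limma called 0.265% higher and 0.0338% lower, and 795 were higher and 795 lower at that unadjusted p. Of the 14 enzymes 13 were above background on all 10 arrays. Of the 17752 genes 11182 were, and 2475 were above it on no array, so the 2 sets differ in level. Of the aldo-keto reductases that rose, AKR1C2, AKR1B10 and AKR1C3, the AKR1C genes are close in sequence and may share probes. AKR1C2 rose by 4.06 on probe ILMN_2412336, while its other probes were at or near background. Besides these, PTGR1 rose by 0.57 ± 0.08 (limma adjusted p = 0.0111). PTGR1 is a reductase of lipid-derived unsaturated aldehydes. CBR3, a carbonyl reductase (1.34 ± 0.35), and GSTA4, which conjugates hydroxynonenal (0.61 ± 0.14), were higher on every treated array but did not pass (limma adjusted p = 0.239 and 0.191). CBR3 read 8.52 on treated 5 and 6.49 to 6.76 on the other treated arrays, and without treated 5 its difference was 0.96. Of 9 tested reference targets of NRF2, 6 rose and 0 fell, with a median difference of 1.34. Among those 6 the largest differences were in SLC7A11 (1.91 ± 0.17), GCLC (1.47 ± 0.23), GCLM (1.34 ± 0.20) and NQO1 (1.28 ± 0.14). Averaged over the 9, the log2 level reached 9.49 on treated 5, with treated 1 to 4 at 8.39 to 8.46 and the controls at 7.25 to 7.33. Both lists were chosen with earlier results of these data known, so their counts are a description.

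Limma called 0 genes among 8 alcohol dehydrogenases, 12 enzymes that release aldehydes, such as the monoamine oxidases, and 6 genes of lysine breakdown, the pathway of ALDH7A1. At an unadjusted p under 0.05 there was 1 higher and 0 lower among them, the amine oxidase AOC2 (0.32 ± 0.14). Over all 17752 genes limma called 0.265% higher and 0.0338% lower, and 795 were higher and 795 lower at that unadjusted p. List medians were 0.04, 0.11 and −0.15. Of the alcohol dehydrogenases 2 were above background on all 10 arrays, ADH5, which oxidises formaldehyde bound to glutathione (−0.14 ± 0.10), and ADH1A (−0.06 ± 0.21, and 0.15 without control 5). AASS, the entry enzyme of lysine breakdown, differed by −0.28 ± 0.13 on the probe that stands for it, and MAOA by 0.05 ± 0.11 (SE, n = 5 per group). On the other AASS probe, above background on all 10 arrays, every treated array was below every control array, with a difference of −0.42 ± 0.12 (SE). That probe was not part of the counts by gene.

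**Figure D3:**
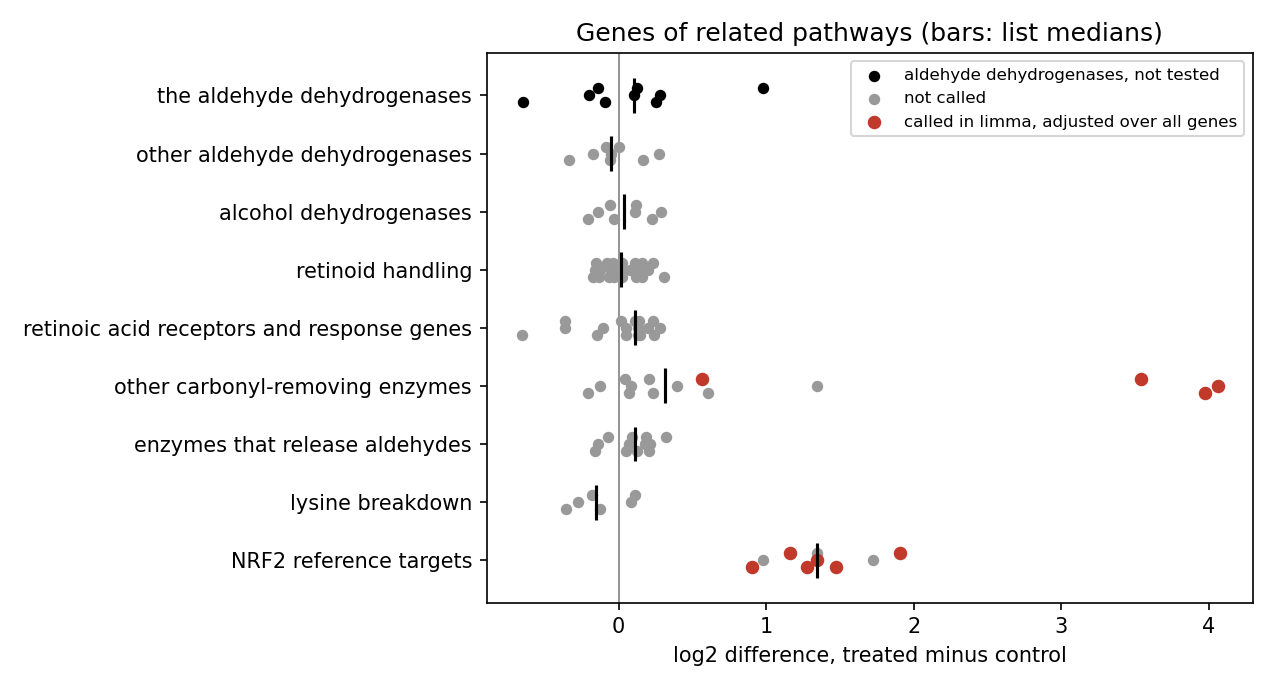
Log2 difference, treated minus control, of the 9 aldehyde dehydrogenases above background on all 10 arrays (black, not tested) and of each tested gene in 8 lists of related genes (grey), with list medians as bars and genes called by limma in red. Called genes are in the carbonyl-removing enzymes (4) and the NRF2 reference targets (6). The lists were chosen with earlier results of these data known.

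The genes with the array pattern nearest to ALDH3A2 and ALDH1A3 were sought among 11173 other genes above background on all 10 arrays. Each gene was centred on its own mean over the 10 arrays, and nearness was the mean absolute distance in log2 units. Nearest to ALDH3A2 were TSKU, which encodes a secreted leucine-rich repeat protein (distance 0.06), SLC6A6, the taurine transporter (0.12), and SDCBP2, a PDZ domain protein (0.12). TSKU averaged 8.69 in treated cells and 7.72 in control cells, and its low value on control 3 and high value on treated 5 matched those of ALDH3A2. Nearest to ALDH1A3 were ST6GALNAC1, a sialyltransferase of mucin glycans (0.10), CA13, a carbonic anhydrase (0.11), and B3GNT6, which builds mucin core glycans (0.12). ST6GALNAC1 averaged 5.63 in treated cells and 6.09 in control cells. The measure includes the difference between groups, so genes with a like difference score as near.

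**Figure D4:**
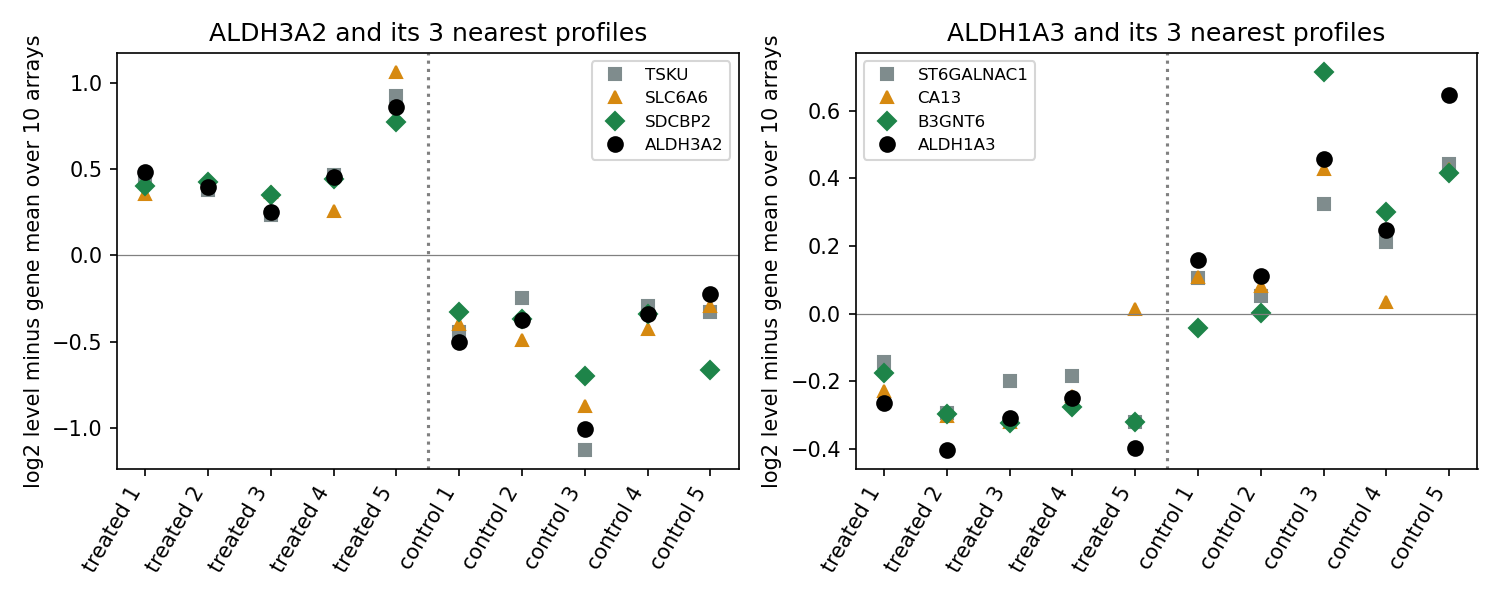
Log2 level of ALDH3A2 (left) and ALDH1A3 (right) and of the 3 genes nearest to each, centred on each gene's mean, on the 5 treated and then the 5 control arrays. ALDH3A2 and its neighbours are highest on treated 5 and lowest on control 3; ALDH1A3 is highest on control 5.

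Under 21 processing alternatives the difference of ALDH3A2 stayed between 0.80 and 1.05 and that of ALDH1A3 between −0.71 and −0.48. The lowest value of ALDH3A2 and the smallest of ALDH1A3 both came without control 3 and both arrays numbered 5. ALDH1A3 was lower on treated arrays in all 21 and ALDH3A2 higher in all 21, a direction that the choice of these genes fixes. The alternatives on filter, variance model and replicate block left both differences unchanged, because they do not alter the group means.

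**Figure D5:**
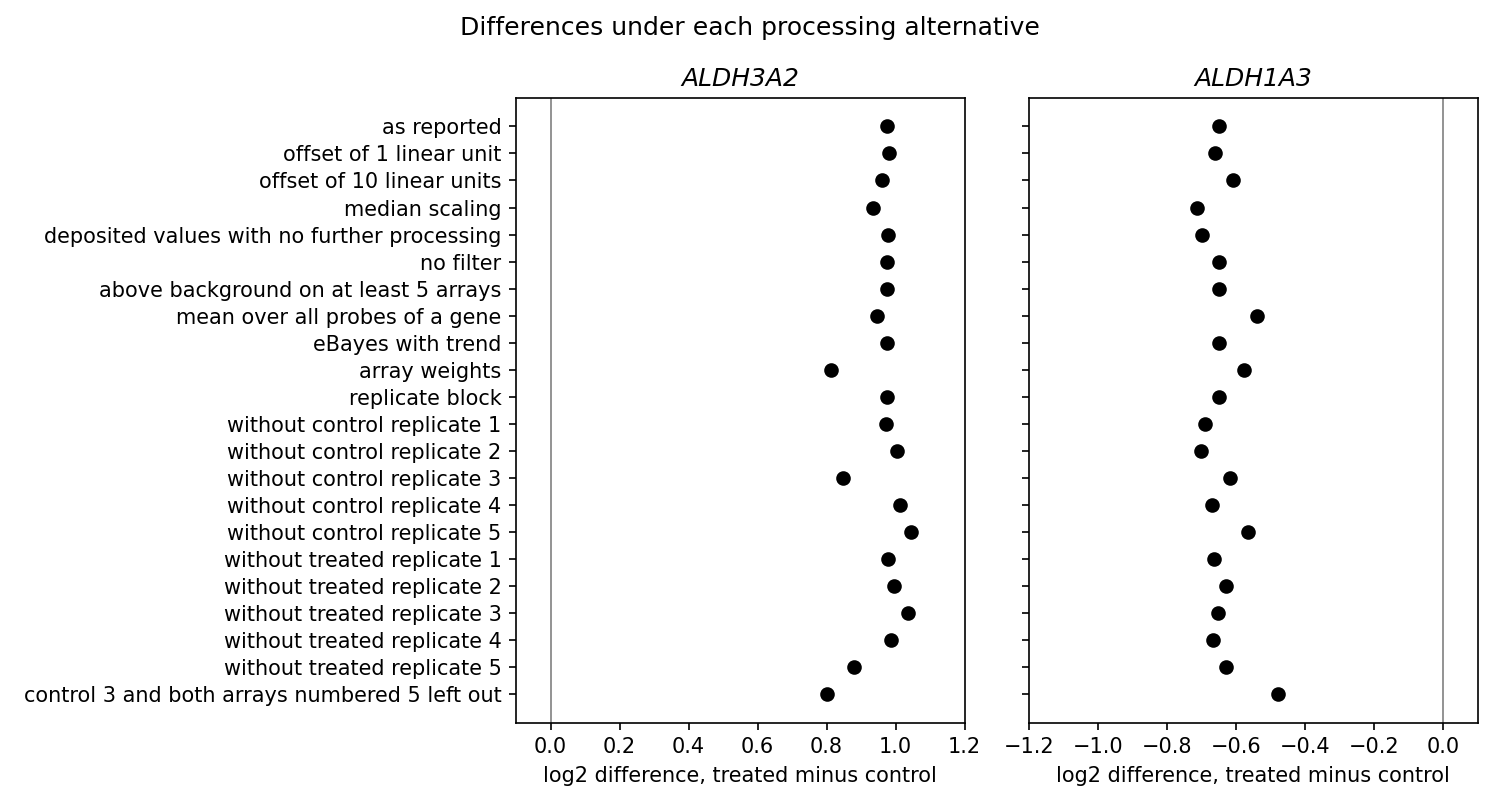
Log2 difference, treated minus control, of ALDH3A2 (left) and ALDH1A3 (right) under each alternative. All points of ALDH3A2 lie at or above 0.80 and all points of ALDH1A3 at or below −0.48.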

How the data were processed

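The authors deposited 1 log10 value per probe and array, for 48803 probes. Base and background subtraction were inferred from the values: below −0.25, from a lower limit of −2 to −1, their log density rose with slopes of 2.18 to 2.29, where log10 of a signal spread evenly around 0 gives 2.30. How the authors subtracted background or normalized is not given in the sources here. A deposited table of scanner signal has 10 columns that match no sample, and no value given here comes from it. Values were made linear, 3 units were added, and log2 was quantile normalized. The filter kept 44606 probes whose mean exceeded the 25th percentile (1.59). Probes were named from the platform annotation, updated through Entrez identifiers (27541 of 27578 matched), and each gene took its probe with the highest mean.

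Groups and replicate numbers came from the sample titles. limma 3.58.1 in R 4.3.3 was fitted over 17752 genes and all 10 arrays, without covariate, two-sided, with Benjamini-Hochberg adjustment at 0.05; SEs are its moderated ones. Tested on simulated data for this comparison (17752 genes), it recovered 43.3% of genes changed by 0.5, 92.5% by 1 and 100% by 2 (log2). Of 166 simulated calls 9 were false. The changed genes were drawn from all 17752 and kept each gene's own spread. Of the 17752, 2475 were above background on no array, some of them at the offset with almost no spread. The shares are therefore not those of expressed genes alone. On the real arrays limma called 6 of the 9 tested NRF2 reference targets, whose differences ran from 0.91 to 1.91. It did not call HMOX1 (1.72), SRXN1 (1.35) and ME1 (0.98), with limma adjusted p-values of 0.337, 0.191 and 0.140. The simulated shares may therefore overstate recovery on the real arrays. The number of arrays limits the precision. The members and lists were chosen with earlier results of these data known. All members and other aldehyde dehydrogenases were named, plus passing list genes (up to 4 per list) and 3 nearest profiles; other genes were chosen after their values were seen. Alternatives covered offset, normalization, filter, probe rule, variance model, array weights, replicate block and arrays left out.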

Additional observations from a re-analysis of the deposited data

Results flagged for a closer look

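Values were checked within each group of 5 arrays: the gap from the highest or lowest array to the next one was divided by the group's range and set against Dixon's critical value of 0.71. The 108 sets of 5 values came from the member probes and the other genes named with values of their own, cell type markers left out. Of these sets, 25 (23.1%) exceeded 0.71, where chance gives about 5% for sets not chosen by their values. The sets share arrays and are not independent. Some of the genes were chosen after their values were seen, or by likeness to ALDH3A2 or ALDH1A3 across arrays. The 23.1% therefore cannot be read against 5%. Treated 5 accounts for 16 of the 25 and control 3 for 5.

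Among the members, treated 5 was high for ALDH1B1 (6.67 on ILMN_2150894, others 6.34 to 6.38), ALDH3B1 (6.68 on ILMN_1728662, others 5.71 to 5.93) and ALDH3A2 (6.07 on ILMN_1667564, others 5.83 to 5.89). ALDH3A1 read 1.80 on control 2 with the other controls at the offset, and the dim ALDH1A2 probe ILMN_1748538 read 1.74 on treated 3; both are below background. Other aldehyde dehydrogenases stood out on control 3, where ALDH5A1 was high at 7.58 (others 6.79 to 6.98) and ALDH18A1 low at 4.83 (others 5.93 to 6.15).

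Of the other genes named, treated 5 was high for AKR1B10 (7.46), AKR1C3 (11.05), SLC7A11 (6.49), GCLC (9.15), GCLM (9.42), SLC6A6 (4.76), SDCBP2 (6.19), CA13 (5.83), CBR3 (8.52) and RDH10 (7.33), and low for TGM2 (5.75), RARB (2.19) and DHRS3 (6.80). Control 3 was high for NRIP1 (8.89) and RDH10 (6.79) and low for TSKU (7.08). Control 5 was high for AKR1B10 (2.64) and ADH1A (3.89). What set treated 5 and control 3 apart was not tested.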

How the results depend on the processing

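Under 21 alternatives, 186 of 189 differences of the 9 members above background on all 10 arrays moved by less than the spread between arrays, and none of ALDH3A2 or ALDH1A3 changed sign. The alternatives on filter, variance model and replicate block left every one of these differences unchanged, because they do not alter the group means. Leaving out 1 array can hardly shift a group mean by more than that spread. The count of 186 therefore says little about stability under those settings. ALDH3A1 was left out here because its levels lie at or near background and shift with the offset. The 3 that moved more were ALDH7A1 averaged over its probes (−0.06, against −0.20), and ALDH1A3 (−0.48) and ALDH1B1 (−0.21) without control 3 and both arrays numbered 5. In that last setting 2 members were higher on every treated array (ALDH3A2 and ALDH2) and 2 lower (ALDH1A3 and ALDH1B1). ALDH3B1 took either sign, from −0.31 to 0.03. Over all genes, 47 were called higher and 6 lower; on the deposited values the counts were 26 and 2, and with array weights 71 and 16. With 1 array left out, 32 to 47 genes were higher and 3 to 9 lower (3 without control 4, treated 1, treated 3 or treated 4), and 1 to 2 members were higher on every treated array. In the related lists 10 genes were higher, 6 on the deposited values, 6 with no filter and 7 to 10 with 1 array left out. The cause of these shifts was not tested.

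With a replicate block 40 genes were higher and 5 lower. Deviations of same-numbered arrays correlated from −0.09 to 0.25 over the 5 numbers. For replicates 2 (0.19), 3 (0.09) and 5 (0.25) this was above the highest correlation with another number (0.15, 0.07 and 0.04). For replicates 1 (−0.09) and 4 (−0.03) it was below (0.22 and 0.13). These values do not settle whether the numbers pair the arrays, and the main fit did not pair them. Signal near background limits the values of ALDH3A1 and ALDH1A1.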
